A study of Arabidopsis thaliana with 4 samples.

Results

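The transcripts described here encode the large cytosolic chaperones of Arabidopsis thaliana: the HSP90, HSP70 and HSP101 proteins, with 1 HSP70 of the endoplasmic reticulum (ER) beside them. They are 10 of the 33602 genes in the deposited table, and each was picked by its gene identifier. The 10 genes were selected on their TPM values in these same 4 libraries, with earlier results of the genotype comparison known. Their values are therefore a description: no p-value is given for them, and how many were called between genotypes is printed only beside the share of all genes called. For 4 of the 10 the literature knows strong induction by heat (HSP90.1, HSP101, HSP70-4 and HSP70-5, called heat-induced here). The other 6 are the forms usually present without heat (HSP90.2, HSP90.3, HSC70-1, HSC70-2, HSC70-3 and BIP2, called constitutive here).

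The study sequenced RNA from guard cells, the paired cells that open and close the stomatal pore. The series sets fully differentiated guard cells beside reprogrammed ones, in seedlings aged 12 days post germination (dpg). The WT group is wild type, and the FAMA-LGK group carries the fama-1 allele together with FAMAp:FAMA-LGK, an altered form of the guard cell regulator FAMA driven by the FAMA promoter. All 4 libraries, 2 per genotype, came from aerial tissue that was protoplasted before guard cells were sorted by flow cytometry. All seedlings were grown at 22 degrees, and no heat treatment is named in the labels. The labels name no sort marker and do not say whether the transgenic plants are 1 line. Nor do they say whether the libraries of a genotype go back to different plantings. Each p-value therefore reflects only how far these 4 samples scatter, which may be technical scatter.

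HSP70 proteins bind short unfolded stretches of other proteins and release them in a cycle driven by ATP. HSP90 proteins act later, on near-native clients such as kinases and receptors, and HSP101 pulls proteins out of aggregates so that HSP70 can refold them. In plants, heat shock factors switch on the induced forms by binding heat shock elements, runs of the unit GAA and its complement TTC in alternation.

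The sequences below are stretches around the gene starts that hold such a run, 1 for each of the 8 genes with a match, shown because the genes are separated by their heat response. They come from RefSeq (TAIR10.1), 30 bases each, on the strand of the gene, with the units in capitals. HSP90.1 lies at chr5:21352557-21355147 on the plus strand, and its site begins 295 bases before the annotated start. The sites of HSP70-4, HSC70-1 and HSC70-3 begin 21, 50 and 34 bases after the start, in the untranslated part of the first exon. Each of these 4 sites has 3 units. Sites of 2 units lie 30 and 60 bases after the start in the heat-induced HSP101 and HSP70-5, and 286 and 292 bases before it in the constitutive HSC70-2 and BIP2. In the last line, for BIP2, the capitals mark CCACGTCA, an element of the unfolded protein response of the ER, 27 bases after the start.
HSP90.1, chr5:21352254-21352283, plus strand: aacgaaaaGAActTTCtgGAAttcgtttgc
HSP70-4, chr3:3993845-3993874, minus strand: ttactcgtGAAcgTTCtcGAAagctctttg
HSC70-1, chr5:556553-556582, minus strand: caaccatcGAAcaTTCtcGAAacattttaa
HSC70-3, chr3:2905893-2905922, minus strand: atcgaaccGAAcaTTCtcGAAcctttttaa
HSP101, chr1:27940322-27940351, minus strand: ataaaataagcGAAaaTTCcacgtgacatc
HSP70-5, chr1:5504458-5504487, minus strand: cacgaccttttTTCtcGAAatgtctcgttc
HSC70-2, chr5:553095-553124, minus strand: agtaggactgtGAAttTTCttatcctcaaa
BIP2, chr5:16810967-16810996, minus strand: aatcgaaacccGAAatTTCaagtaaatact
BIP2, chr5:16810649-16810678, minus strand: agataattggtCCACGTCAtctccgatgac

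The search covered 500 bases before to 100 bases after each annotated start, on both strands, with exact units spaced 2 bases apart. A run of 3 units was found in 4 of the 10 genes and in 1.06% of 27443 promoters of protein-coding genes. A pair of units (GAANNTTC or TTCNNGAA, each contained in any run of 3) was found in 8 of the 10 and in 35.7% of all promoters. Both heat-induced and constitutive forms held runs of 3 units, 2 of 4 and 2 of 6. No match was found in HSP90.2 or HSP90.3. The element CCACGTCA (TGACGTGG on the other strand) was in 1 of the 10, BIP2, and in 2.23% of all promoters, and the ERSE element was in none of the 10 and in 0.579% of all. A match is a run of letters and not a measured binding site, and 2-unit matches are frequent by their length. In the window of 250 bases before to 50 after, 2 of the 10 genes, HSP70-4 and HSC70-3, still held 3 units, against 0.481% of promoters. A pair of units was found there in 2 of 4 heat-induced and 1 of 6 constitutive genes, against 19.3% of promoters.

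The labelled cell type was checked on marker lists. All 13 guard cell markers were measured, none was at 0 in any library, and their summed TPM was 18033 and 13920 in the WT libraries against 2942 and 2585 in the FAMA-LGK libraries. TGG1 and TGG2, both myrosinases, made up most of these sums, and the other 11 markers summed to 474 and 441 TPM in WT against 278 and 263 TPM. By limma, 8 of the 13 were lower in FAMA-LGK and 1, MYB60, was higher. The FAMA transcript measured 66.1 and 65.6 TPM in the WT libraries and 94.3 and 81.2 TPM in the FAMA-LGK libraries, which does not separate the endogenous gene from the transgene. Of 7 epidermis markers 4 were higher in FAMA-LGK, and their sums were 208 and 157 TPM in WT against 456 and 412 TPM. Of 8 mesophyll markers 1 was lower, with sums of 581 and 643 TPM in WT against 467 and 525 TPM. Nuclear ribosomal RNA took between 22.3% and 33.0% of TPM, the highest share being in FAMA-LGK replicate 1, and organelle genes took between 25.3% and 30.8%. Among the 15143 genes averaging 1 TPM or more, 977 (6.45%) were called higher and 930 (6.14%) lower in FAMA-LGK (limma on log2(TPM + 1), Benjamini-Hochberg adjusted p under 0.05). In either direction that is 12.6% of the genes tested. Removing ribosomal RNA and organelle transcripts gave 1629 higher and 783 lower calls. With the first or the second WT library left out, limma called none (lowest adjusted p 0.0614 and 0.0553), which holds for each call printed below. In bulk libraries such as these, fewer cells of a type and less RNA per cell cannot be told apart.

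The heat-induced forms were among the most abundant nuclear transcripts of every library. TPM is scaled for gene length, so levels of different genes can be set side by side. The lengths used and the treatment of reads matching several places are not stated, so such comparisons between genes carry that uncertainty. HSP90.1 ranked 6th and 7th of 33319 nuclear genes (ribosomal RNA left out) in the WT libraries and 13th and 4th in the FAMA-LGK libraries. HSP70-4 ranked 9th, 8th, 9th and 9th in the same order of libraries. HSP101 ranked 27th, 21st, 37th and 14th, and HSP70-5 ranked 37th, 25th, 103rd and 18th. Such ranks were not particular to the heat-induced forms. HSC70-3, the highest of the constitutive forms, ranked 29th, 26th, 12th and 20th. Together the 10 genes held 3.10% and 3.71% of that nuclear TPM in the WT libraries, and 2.16% and 3.75% in the FAMA-LGK libraries. FAMA-LGK replicate 1 was the lowest of the 4 in this share, and FAMA-LGK replicate 2 the highest.

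HSP90.1, the heat-induced cytosolic HSP90, stood at 4390 and 4922 TPM in the WT libraries and at 1712 and 4088 TPM in the FAMA-LGK libraries. Both FAMA-LGK values were below both WT values, but replicate 2 lay close to WT and replicate 1 far below it. The log2 fold change on the log2(TPM + 1) scale, FAMA-LGK minus WT, was -0.81 with a standard error of 0.42.

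HSP101 (AT1G74310), the disaggregase required for tolerance of severe heat, stood at 2040 and 2723 TPM in WT and at 850 and 2873 TPM in FAMA-LGK. The FAMA-LGK values lay on either side of both WT values, so the groups overlapped. Its log2 fold change was -0.59 with a standard error of 0.49.

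HSP70-4 (AT3G12580), a cytosolic HSP70 that rises strongly with heat, stood at 3738 and 4170 TPM in WT and at 2079 and 3799 TPM in FAMA-LGK. The second FAMA-LGK library fell between the WT libraries and the first was the lowest. Its log2 fold change was -0.49 with a standard error of 0.36.

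HSP70-5 (AT1G16030), named HSP70B in RefSeq and nearly silent without heat in most tissues, stood at 1374 and 2160 TPM in WT and at 475 and 2475 TPM in FAMA-LGK. The spread within FAMA-LGK enclosed both WT values. Its log2 fold change was -0.67 with a standard error of 0.61, the widest error of the 10.

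**Figure D1:**
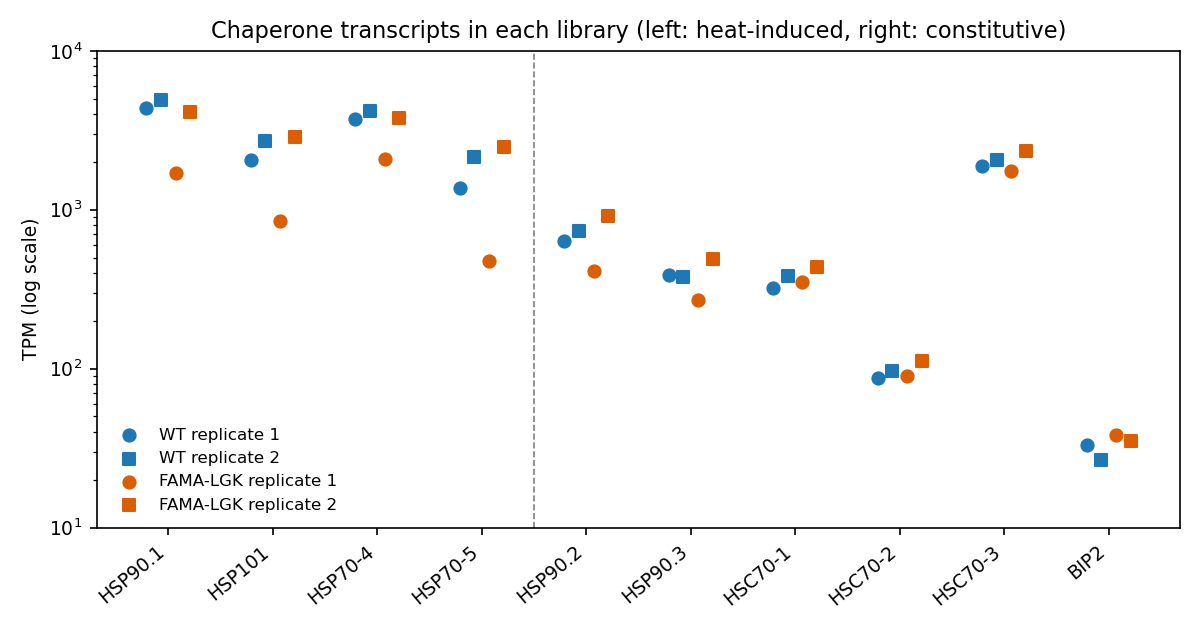
TPM of the 10 chaperone genes (log axis) in each of the 4 libraries, with WT in blue and FAMA-LGK in orange, replicate 1 as circles and replicate 2 as squares. In each of the 4 heat-induced genes, left of the dashed line, FAMA-LGK replicate 1 is the lowest point, while the constitutive HSC70 genes lie close together.

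The constitutive HSP90 forms were lower in level than HSP90.1. HSP90.2 (AT5G56030) stood at 633 and 739 TPM in WT and at 412 and 908 TPM in FAMA-LGK. HSP90.3 (AT5G56010) stood at 389 and 378 TPM in WT and at 270 and 489 TPM in FAMA-LGK. In both genes FAMA-LGK replicate 1 was the lowest library and FAMA-LGK replicate 2 the highest, and the genotype means differed little. The log2 fold changes were -0.16 (standard error 0.34) for HSP90.2 and -0.08 (standard error 0.28) for HSP90.3. Both signs turned positive, to 0.03 and 0.12, when ribosomal RNA and organelle genes were removed and the libraries rescaled.

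HSP90.2 and HSP90.3 lie on chromosome 5 within chr5:22681238-22689671, and their coding sequences are 95.7% identical. Of the 50-base stretches in their exons, 18.9% of those of HSP90.2 and 24.8% of those of HSP90.3 occur in another gene, chiefly in each other. How the authors treated reads matching several places is not given in the sources used here, so the split of reads between this pair is uncertain. HSP90.1 is 79.2% identical to HSP90.2 and shares none of these stretches with another gene.

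The constitutive HSP70 forms of the cytosol differed less between the FAMA-LGK libraries than the HSP90 and heat-induced forms did. HSC70-3 (AT3G09440) stood at 1890 and 2040 TPM in WT and at 1758 and 2330 TPM in FAMA-LGK. HSC70-1 (AT5G02500), below HSC70-3 in every library, stood at 323 and 382 TPM in WT and at 352 and 436 TPM in FAMA-LGK. HSC70-2 (AT5G02490), its neighbour on chromosome 5, stood at 87.9 and 96.7 TPM in WT and at 89.8 and 111 TPM in FAMA-LGK. The genotypes overlapped in all 3 genes, and in each FAMA-LGK replicate 2 was the highest library. Their log2 fold changes were 0.04 (standard error 0.29), 0.16 (0.23) and 0.11 (0.21), and median-ratio scaling moved that of HSC70-3 to -0.03. HSC70-3 shares 609 bases of exon, 18.9% of its exon length, with AT3G09430 on the opposite strand, and the sources used here do not state whether counting used the strand. AT3G09430 was at 10.8, 7.42, 9.99 and 39.3 TPM in the 4 libraries, far below HSC70-3.

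BIP2 (AT5G42020), the HSP70 of the ER lumen that serves protein folding on the secretory route, was the lowest of the 10. It stood at 33.1 and 26.45 TPM in WT and at 38.3 and 35.2 TPM in FAMA-LGK. Both FAMA-LGK values were above both WT values, by little. Its log2 fold change was 0.30 with a standard error of 0.22. BIP2 shares 24.1% of its 50-base stretches, chiefly with BIP1, to which it is 96.8% identical in coding sequence, so reads may be split between them. BIP1 measured 46.2 and 47.5 TPM in the WT libraries and 45.6 and 60.6 TPM in the FAMA-LGK libraries.

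The order of levels in WT ran from HSP90.1 and HSP70-4 through HSP101, HSC70-3 and HSP70-5 to HSP90.2, HSP90.3, HSC70-1, HSC70-2 and BIP2. In that order the ranges of HSP101 and HSC70-3 met, as did those of HSC70-3 and HSP70-5 and those of HSP90.3 and HSC70-1. Within each WT library HSP101 was above HSC70-3, while the other pairs with meeting ranges changed places between the libraries. The other neighbours were apart in both WT libraries. In FAMA-LGK the ranges of HSP90.1, HSP70-4, HSC70-3, HSP101 and HSP70-5 all overlapped one another. Within each FAMA-LGK library, however, HSP90.1 and HSP70-4 were both above HSP101, and HSP101 was above HSP70-5. HSP90.1 and HSP70-4 changed places between the libraries. HSC70-3 stood above HSP90.1, HSP101 and HSP70-5 in replicate 1 and below them in replicate 2.

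All 10 genes passed the minimum of 1 TPM, and none was among the 12.6% of tested genes called between genotypes. Since these genes were picked with this contrast known, nothing is read from that count. TPM of the genotypes did not overlap in 2 of the 10, HSP90.1 and BIP2, against 57.3% of all tested genes. The median log2 fold change was -0.63 over the 4 heat-induced genes (range -0.81 to -0.49) and 0.08 over the 6 constitutive genes (range -0.16 to 0.30), beside 0.06 over all 15143 tested genes. Removing ribosomal RNA and organelle genes moved the median of all genes to 0.23, that of the heat-induced genes to -0.44 and that of the constitutive genes to 0.27. For a single value, 2 samples per group allow no smaller two-sided p than 0.333 in an exact permutation test, and none was run.

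The heat-induced median rested on FAMA-LGK replicate 1. Without that library the median of the 4 genes was 0.11, and without FAMA-LGK replicate 2 it was -1.46. Without replicate 1 the log2 fold changes were -0.19 for HSP90.1, 0.29 for HSP101, -0.06 for HSP70-4 and 0.52 for HSP70-5, so HSP101 and HSP70-5 changed sign. Without replicate 2 they were -1.44, -1.47, -0.93 and -1.86 in the same order.

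**Figure D2:**
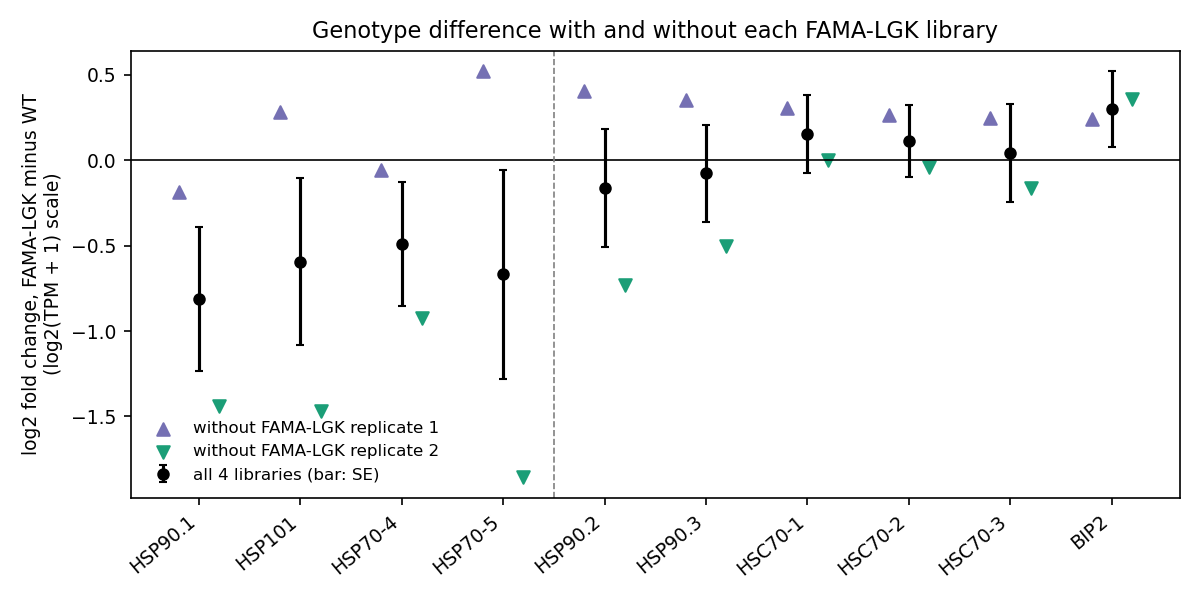
Log2 fold change (FAMA-LGK minus WT, log2(TPM + 1) scale) of the 10 genes with all 4 libraries (black, bars give the standard error) and without either FAMA-LGK library (triangles). The 4 heat-induced genes lie between -0.93 and -1.86 without replicate 2 and between -0.19 and 0.52 without replicate 1.

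For each heat-induced gene the FAMA-LGK libraries differed from each other by more, on the log2 scale, than the genotype means did. In FAMA-LGK, replicate 2 was 5.21 times replicate 1 for HSP70-5, 3.38 times for HSP101, 2.39 times for HSP90.1 and 1.83 times for HSP70-4. Among the constitutive genes the ratio was 2.20 for HSP90.2, 1.81 for HSP90.3, 1.33 for HSC70-3, 1.24 for HSC70-1 and for HSC70-2, and 0.919 for BIP2. Thus 4 of the 10 were at least 2-fold higher in replicate 2, against 11.8% of all tested genes and 11.3% of the 759 genes averaging 100 TPM or more. Between WT libraries the ratio of replicate 2 to replicate 1 was 1.57 for HSP70-5 and 1.34 for HSP101, and it ran from 0.798 (BIP2) to 1.18 (HSC70-1) in the other 8. It was above 1 in 8 of the 10, against 40.7% of all tested genes.

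With the libraries numbered as deposited, genes with a higher ratio of replicate 2 to replicate 1 in FAMA-LGK tended to have the higher ratio in WT. Across the 10 genes, the log2 ratios of both genotypes had a Pearson r of 0.835 and a Spearman rho of 0.733. The genes are not independent, and the values are a description without p. The replicate numbers were not shown to pair the libraries, and swapping them in either genotype alone would reverse the sign of r and rho. Over all 15143 tested genes, deviations of same-numbered libraries from their genotype mean correlated at 0.0782. The gap between FAMA-LGK libraries was not uniform: 11.8% of all tested genes were at least 2-fold higher in replicate 2. Among markers this held for 0 of 7 epidermis, 0 of 8 mesophyll and 1 of 13 guard cell markers. Such small counts cannot be set apart from that share. Higher to any extent in FAMA-LGK replicate 2 were 3 of 7, 7 of 8 and 7 of 13 in the same order. After ribosomal RNA and organelle genes were removed and the libraries rescaled, the FAMA-LGK ratios were 4.13 for HSP70-5, 2.68 for HSP101, 1.89 for HSP90.1 and 1.45 for HSP70-4. The share of ribosomal RNA was 33.0% in FAMA-LGK replicate 1 and 22.3% in replicate 2, and its part in the gap beyond this rescaling was not tested.

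**Figure D3:**
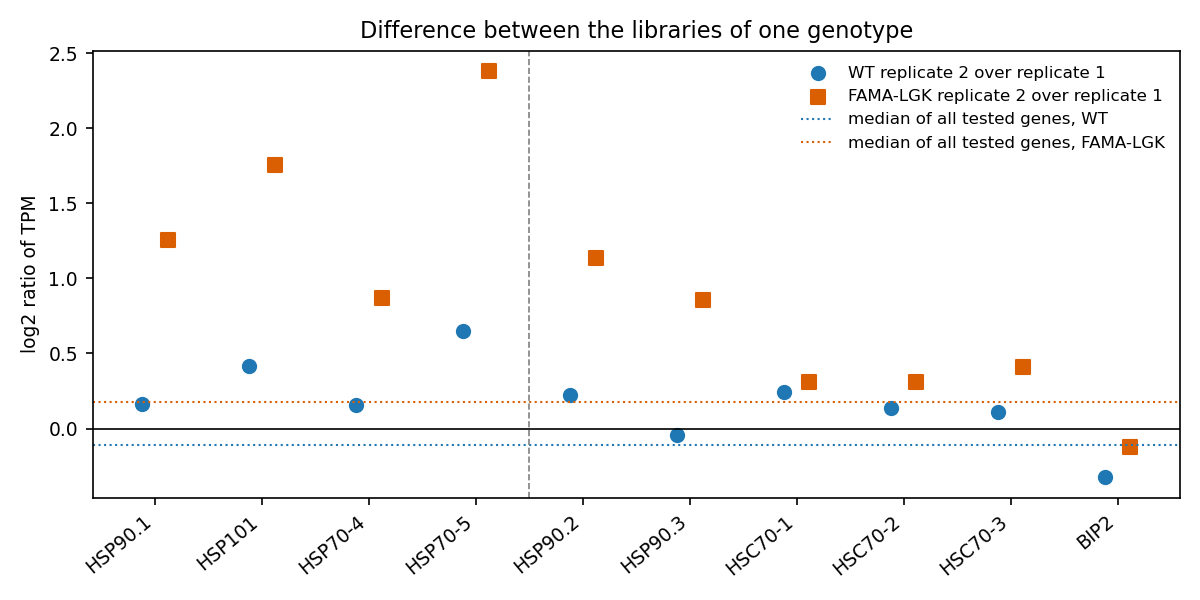
Log2 ratio of TPM in replicate 2 to replicate 1 for the 10 genes, in WT (blue circles) and in FAMA-LGK (orange squares), with dotted lines at the median of all tested genes. The FAMA-LGK ratio is highest for HSP70-5, 5.21 on the linear scale. It lies near the all-gene line for HSC70-1 and HSC70-2 and below that line for BIP2.

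Shares within a fixed set of genes do not depend on how a library is scaled. They do depend on how reads matching several places were counted, which is not stated. Of the 50-base exon stretches, 18.9% for HSP90.2 and 24.8% for HSP90.3 occur in another gene, against 0% for HSP90.1. The sets here hold only genes from the 10 described, so HSP70-8, HSP90.4 and other genes of these families are left out. The heat-induced HSP70-4 and HSP70-5 held 69.0% and 71.5% of the summed TPM of the 5 cytosolic HSP70 genes described here in WT. In FAMA-LGK they held 53.7% and 68.6%. HSP90.1 held 81.1% and 81.5% of the summed TPM of HSP90.1, HSP90.2 and HSP90.3 in WT, and 71.5% and 74.5% in FAMA-LGK. In both sets the FAMA-LGK shares lay below the WT shares. For HSP70 the second FAMA-LGK library was within 1 percentage point of the lower WT library, whereas for HSP90 both FAMA-LGK libraries stood apart from WT. The difference of means was -9.10 percentage points for HSP70 and -8.30 for HSP90. Without FAMA-LGK replicate 1 it was -1.68 for HSP70 and -6.78 for HSP90, and without replicate 2 it was -16.5 and -9.83.

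**Figure D4:**
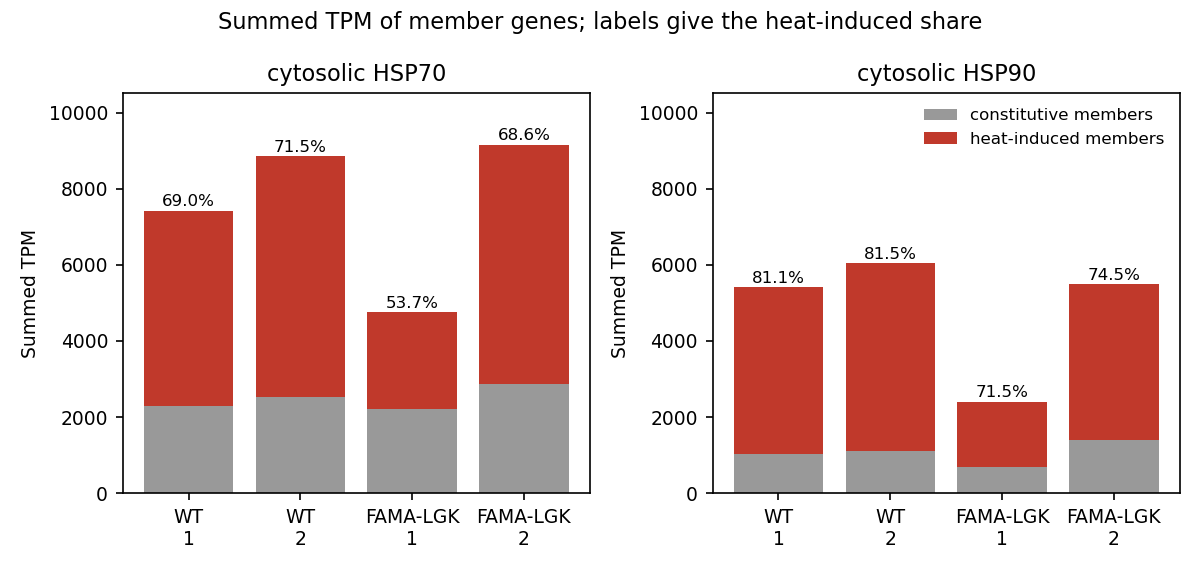
Summed TPM in each library of the cytosolic HSP70 genes (left) and HSP90 genes (right) described here, without other genes of these families. Bars are divided into heat-induced (red) and constitutive (grey) forms, with the heat-induced share printed above each bar. The heat-induced share of HSP90 is 81.1% and 81.5% in the WT libraries, against 71.5% and 74.5% for FAMA-LGK.

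Of 18 measured genes among the other 19 of the HSP70, HSP90 and HSP100 families, limma called 1 higher and 2 lower in FAMA-LGK, with a list median of -0.35. Here and in the lists below, calls stand beside 6.45% higher and 6.14% lower among all tested genes. Counts of genes at least 2-fold higher in FAMA-LGK replicate 2 stand beside 11.8% of all tested genes. Call counts near these shares are not read as a result about a list. BIP3, the ER HSP70 known to be strongly induced by ER stress, rose by 1.32 on the log2 scale, from 1.65 and 1.29 TPM to 4.72 and 5.65 TPM (limma adjusted p = 0.032). HSP70-16, an HSP70 of the HSP110 type, fell from 40.6 and 62.4 TPM to 13.6 and 27.8 TPM (-1.33, limma adjusted p = 0.030). The mitochondrial mtHSC70-1 fell from 37.7 and 35.7 TPM to 22.2 and 15.9 TPM (-0.93, limma adjusted p = 0.032). The other mitochondrial form, mtHSC70-2, stood at 441 and 513 TPM in WT and at 194 and 550 TPM in FAMA-LGK and was not called. HSP70-8, at 713 and 1050 TPM in WT, stood at 228 and 1046 TPM in FAMA-LGK, and the plastid CLPB3 went from 296 and 401 TPM to 124 and 468 TPM. In these last 3 FAMA-LGK replicate 1 was the lowest library, and 9 of the 18 were at least 2-fold higher in FAMA-LGK replicate 2 than in replicate 1. Without FAMA-LGK replicate 1 only mtHSC70-1 of the 18 was called, and without replicate 2 limma called 8, all lower, while BIP3 and mtHSC70-1 lost their calls.

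Of 22 co-chaperones of HSP90 and HSP70, all measured, 1 was called higher and 3 lower, with a median of -0.52. SGT1B, an HSP90 partner in immune and hormone signalling, rose from 6.08 and 7.86 TPM to 13.7 and 15.8 TPM (0.99, limma adjusted p = 0.038). ATJ1, a DnaJ partner of mitochondrial HSP70, fell from 30.6 and 24.6 TPM to 7.78 and 12.2 TPM (-1.40, limma adjusted p = 0.010). BAG5, of a family of HSP70 exchange factors, fell from 24.4 and 25.2 TPM to 9.77 and 12.1 TPM (-1.12, limma adjusted p = 0.014). HOP2, which links HSP70 to HSP90, fell from 228 and 248 TPM to 117 and 162 TPM (-0.79, limma adjusted p = 0.049). The heat-induced HOP3 was far more abundant and not called, at 3440 and 3874 TPM in WT and at 1497 and 3976 TPM in FAMA-LGK. Of the 22, 9 were at least 2-fold higher in FAMA-LGK replicate 2. Limma called 2 without FAMA-LGK replicate 1, ATJ1 and BAG5, and 12 without replicate 2, all lower; SGT1B lost its call either way.

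The small heat shock proteins, which hold unfolding proteins for HSP70 and HSP101, had the lowest median of the 7 chaperone and heat response lists. Of 16 measured of 18, 3 were called lower and none higher, with a median log2 fold change of -1.23. HSP17.6B-CI, the highest of them in both WT libraries, fell from 7859 and 9510 TPM to 1586 and 4268 TPM (-1.73, limma adjusted p = 0.039). HSP17.4 fell from 3859 and 5186 TPM to 643 and 2349 TPM (-1.86, limma adjusted p = 0.044), and HSP26.5 fell from 238 and 445 TPM to 14.6 and 121 TPM (-2.90, limma adjusted p = 0.030). HSP17.4 shares exon bases with genes on the opposite strand, so its count carries that uncertainty. In 15 of 16 the level was at least 2-fold higher in FAMA-LGK replicate 2 than in replicate 1. The list's summed TPM was 27135 and 37341 in the WT libraries and 7308 and 23249 in the FAMA-LGK libraries. Limma called 1 of them lower without FAMA-LGK replicate 1, HSP26.5, and 14 lower without replicate 2.

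Of 21 heat shock factors, the regulators that bind heat shock elements, 13 passed the minimum, 1 was called higher and 3 lower, with a median of -0.19. HSFA1D, a master regulator of the heat response, fell from 82.7 and 80.9 TPM to 11.69 and 14.65 TPM, a log2 fold change of -2.55 (limma adjusted p = 0.000112). The FAMA-LGK libraries were closer together in this gene than in any of the 4 heat-induced chaperones. HSFA1A, its paralog, rose from 27.5 and 19.3 TPM to 39.5 and 44.5 TPM (0.84, limma adjusted p = 0.049). HSFA3 fell from 6.97 and 7.77 TPM to 1.19 and 2.03 TPM (-1.70, limma adjusted p = 0.011), and HSFA8 from 16.0 and 10.3 TPM to 4.87 and 5.59 TPM (-1.16, limma adjusted p = 0.032). HSFA2, a factor itself induced by heat, stood at 1235 and 1274 TPM in WT and at 697 and 1738 TPM in FAMA-LGK, with the FAMA-LGK libraries on either side of both WT values. HSFA1D and HSFA3 were still called with either FAMA-LGK library left out, whereas HSFA1A and HSFA8 were not. In 3 of the 21, HSFA6A, HSFB1 and HSFB3, every library was listed at 0.

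Of 5 other heat-induced genes none was called by limma (2 at an unadjusted p under 0.05), with a median of -0.91, and all 5 were at least 2-fold higher in FAMA-LGK replicate 2. Without that library limma called 3 of them lower. MBF1C, a heat-induced coactivator, stood at 2450 and 3561 TPM in WT and 1183 and 2670 TPM in FAMA-LGK. DREB2A, a regulator of heat and drought genes, stood at 1332 and 1218 TPM in WT and 906 and 2293 TPM in FAMA-LGK.

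Of 14 ER folding genes 1 was called, with a median of 0.07. It was BZIP60, a regulator of the unfolded protein response, which fell from 133 and 158 TPM to 58.8 and 55.2 TPM (-1.33, limma adjusted p = 0.003). Of 13 chaperonins, the ring-shaped folding machines of cytosol and organelles, none was called by limma (3 at an unadjusted p under 0.05), with a median of 0.10. In both lists 3 genes were at least 2-fold higher in FAMA-LGK replicate 2. Of the ER folding genes, 4 had an unadjusted p under 0.05. Without FAMA-LGK replicate 2 limma called 2 genes in each list, and BZIP60 was called with either FAMA-LGK library left out.

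**Figure D5:**
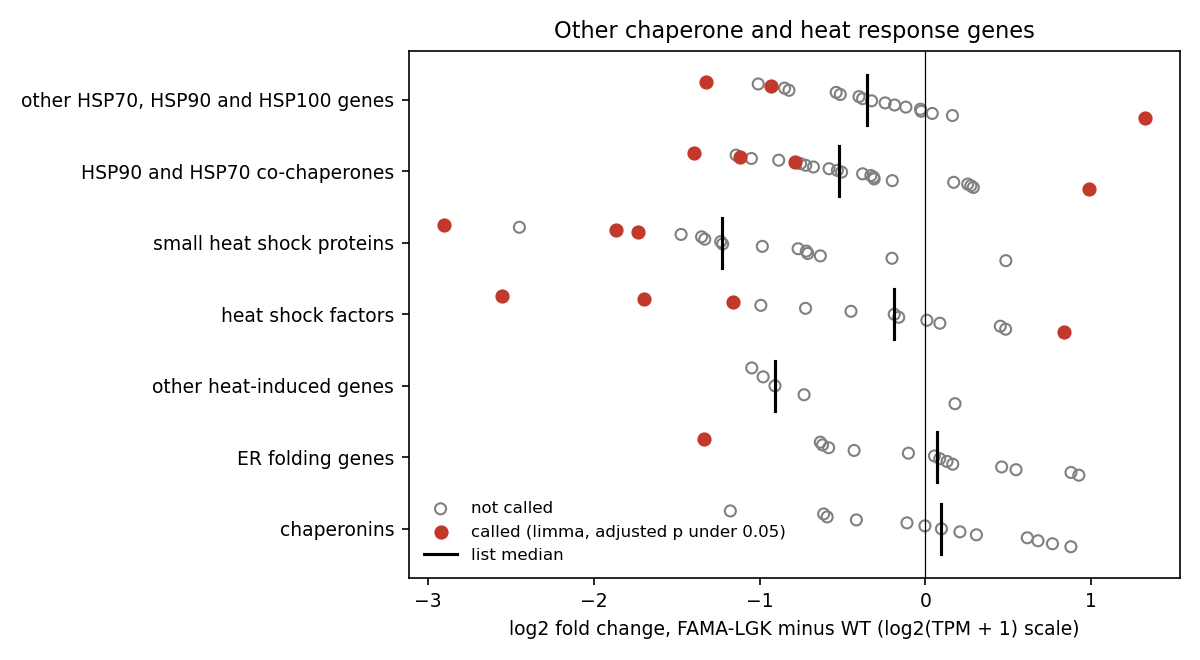
Log2 fold change (FAMA-LGK minus WT, log2(TPM + 1) scale) of each measured gene in 7 lists of chaperone and heat response genes, with called genes filled in red and list medians as black bars. The small heat shock proteins have the lowest median, -1.23, and HSFA1D at -2.55 is the lowest of the heat shock factors.

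Genes with the most similar pattern were sought by the Euclidean distance of log2(TPM + 1), centred on each gene's mean, over the 4 libraries and 15133 genes. Nearest to HSP90.1 were the plastid HSP90.5 (distance 0.0793), the DnaJ gene AT2G20560 (0.0847), AT1G16320, AT2G41160 and TIN1 (0.107). Nearest to HSP101 were BAG6 (0.124), CLPB3 (0.137), SNRK2.3, APD2 and AT1G29810 (0.173). Nearest to HSC70-1 were PRMT11 (0.0319), AT1G61770, EDR2, GGT1 and AT5G24450 (0.0504). With 4 libraries such distances describe these samples only.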

How the data were processed

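RNA from sorted guard cells was measured in 4 libraries, 2 per genotype. The authors deposited 1 table of TPM values, which the labels derive from read counts per gene. Tools listed, without their roles, in the submitters' processing notes are Bowtie2, HTSeq and CASAVA 1.8.2, and the genome build is TAIR10. Gene lengths, strand and the treatment of multiply matching reads are not stated there. TPM keeps no library size, so no counting interval is given.

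In R 4.3.3, limma 3.58.1 was fitted to log2(TPM + 1) (eBayes with trend, two-sided, all 4 samples, Benjamini-Hochberg threshold 0.05) over genes averaging 1 TPM or more, after tests on simulated data. The pseudocount understates changes of low genes. Descriptions, sequences and figures used Python 3.11.15, pandas 2.3.3, numpy 2.4.6, biopython 1.88 and matplotlib 3.10.9. The 10 genes and all lists were chosen with earlier results of these data known. From each list the text names the called genes, at most 4 in each direction, and uncalled genes from the lists with the same families or functions, the latter after their values were seen. Sequence and coordinates came from RefSeq TAIR10.1, where 32835 of the 33602 identifiers matched. Protein identity was replaced by identity of coding sequence. Alternatives covered pseudocount, minimum, scaling, variance model, left-out libraries and a replicate block.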

Additional observations from a re-analysis of the deposited data

How the results depend on the processing

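The heat-induced median ranged from -1.46 to 0.11 with a library left out. The replicate numbers were not shown to pair the libraries (deviations of same-numbered libraries correlated at 0.0782 over 2 pairs), and the replicate block raised the calls to 1479 higher, with 6 in the other HSP70, HSP90 and HSP100 genes, 7 co-chaperones, 11 small heat shock proteins, 3 other heat-induced genes, 2 ER folding genes and 2 chaperonins.

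All genes called higher fell to 245 with no minimum on low values and reached 1629 with ribosomal RNA and organelle genes removed; those called lower fell to 266 with no minimum and to 595 without a variance trend. With a library left out they ranged from 0 to 816 higher and from 0 to 1074 lower: without WT replicate 1 or without WT replicate 2 none was called by limma, while 1626 and 1197 genes were higher at an unadjusted p under 0.05. The cause was not tested.

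With no minimum, 0 of the other HSP70, HSP90 and HSP100 genes, 0 co-chaperones, 0 small heat shock proteins and 1 heat shock factor were called; without a variance trend 1, 2, 0 and 2. Median-ratio scaling called 5 small heat shock proteins. A minimum of 5 TPM, median-ratio scaling and removal of ribosomal RNA and organelle genes each called 2 ER folding genes, and the last called 1 chaperonin. With a library left out, calls ranged from 0 to 8 in the other HSP70, HSP90 and HSP100 genes, from 0 to 12 in co-chaperones, from 0 to 14 in small heat shock proteins, from 0 to 3 in heat shock factors and in other heat-induced genes, and from 0 to 2 in ER folding genes and in chaperonins. The upper ends of 8, 12 and 14 came without FAMA-LGK replicate 2. Of the 15 called genes named, 15 kept their call under median-ratio scaling, 12 with ribosomal RNA and organelle genes removed, 2 with no minimum, 7 without FAMA-LGK replicate 1, 10 without FAMA-LGK replicate 2 and 0 without either WT library. In the window of 500 bases before to 100 after, matches of 2 units were found in 8 of the 10 genes and in 35.7% of all promoters. The window of 250 bases before to 50 after was chosen after seeing the data. There, 2 units were found in 2 of 4 heat-induced and 1 of 6 constitutive genes, against 19.3% of promoters, and 3 units in 2 of the 10.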

Other observations

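Genes that overlap a chaperone or heat response gene on the opposite strand were examined after the values of AT3G09430 and AT1G74300 had been seen. AT1G74300 shares 101 bases of the exons of HSP101 and was at 19.8 and 25.7 TPM in WT and at 38.0 and 93.8 TPM in FAMA-LGK. AT4G12390, opposite HOP3, was at 2.96 and 4.34 TPM in WT and at 7.59 and 17.2 TPM in FAMA-LGK. AT5G15440, opposite CLPB3, was at 24.0 and 19.4 TPM in WT and at 35.2 and 84.1 TPM in FAMA-LGK. FAMA-LGK replicate 2 was the highest library for 13 of 14 such neighbours whose partner had a mean of at least 100 TPM. The same held for 5 of 12 neighbours of partners under 100 TPM and for 36.2% of all 15143 tested genes. No cause was tested.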
